A study of Mus musculus with 24 samples.

Results

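Receptors of the ErbB family and the growth factors that bind them were followed across 4 derivatives of EO771, a mouse mammary carcinoma cell line. The 9 genes were taken by symbol and comprised the receptors Egfr, Erbb2 and Erbb3 and the ligands Areg, Ereg, Hbegf, Tgfa, Btc and Nrg1. All 9 had a row among the 55471 genes of the batch 1 table, and 6 had a row among the 13915 genes of the batch 2 table, which had been shortened before deposit. Egfr, Tgfa and Nrg1 had no row in batch 2 and are described from batch 1.

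ErbB receptors are tyrosine kinases of the cell surface that pair after a ligand binds, and the pairs activate the RAS-ERK and PI3K-AKT cascades. ERBB2 has no known ligand of its own and acts as a partner, whereas ERBB3 binds neuregulins but has little kinase activity and signals mainly through its partners. Most ligands are made as membrane-anchored precursors that metalloproteases cut free, and in the mammary gland amphiregulin is known for its part in duct growth at puberty.

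X2 cells carried the control vector, which was also introduced by retroviral transduction, and tdTomato was carried by X2 and Ccr7 cells alike. Below, transduced cells are those that received Ccr7. CCR7 cells were transduced with mouse Ccr7 and sorted as PDPN-negative, CCR7-PDPN cells came from the same transduction and were sorted for PDPN that had appeared spontaneously, and X2-PDPN cells were the PDPN-positive sort of X2. The cells shared the retroviral pLNCX2 backbone and G418 selection, and each derivative was a single uncloned population that was sequenced as 4 technical replicates per batch. CCR7 cells were sequenced in batch 1 and X2-PDPN cells in batch 2, with X2 and CCR7-PDPN in both, giving 24 libraries of 22275468 to 35721027 counts. The p-values therefore measure the spread between technical replicates of a population, not between independently made populations.

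Levels of Ccr7 and Pdpn followed the labels. Ccr7 had group means of 2800 to 3178 CPM (counts relative to library size, scaled by TMM) in the transduced cells and at most 0.660 CPM in the others, and Pdpn had 24.6 to 25.6 CPM in the PDPN-positive sorts and at most 0.413 CPM elsewhere. Of 6 epithelial markers, Krt8 alone exceeded 1 TPM (a level corrected for transcript length), at 425 to 560 TPM. Vim was the highest of 5 mesenchymal markers, at 1848 to 2340 TPM, and 3 of these exceeded 1 TPM in each group. Of 4 adipocyte and fibroblast markers, Pdgfra alone exceeded 1 TPM, at 55.2 to 67.5 TPM. Among 6 leukocyte markers Cd68 carried nearly the whole signal. The summed TPM of the list per library was 132 to 156 for batch 1 X2, 42.1 to 57.6 for CCR7, 23.9 to 32.1 for batch 1 CCR7-PDPN, 131 to 147 for batch 2 X2, 56.9 to 69.2 for X2-PDPN and 22.5 to 30.7 for batch 2 CCR7-PDPN. In batch 1 the next leukocyte gene had at most 0.0446 TPM and Cd3e had no read, so the defining leukocyte markers were at or near 0.

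The bases before the start of Areg, Btc and Egfr are shown because Areg and Btc moved together with the neighbouring Ereg, whereas Egfr had hardly any reads. They are 250 bases upstream of each RefSeq start on GRCm38.p6, 5′ to 3′ on the gene's strand. Areg lies at chr5:91139349-91139598 on the plus strand, Btc at chr5:91402995-91403244 on the minus strand and Egfr at chr11:16751953-16752202 on the plus strand. Capitals mark matches, on either strand, to the TATA box TATAAA, the cyclic AMP response element TGACGTCA or the GC box GGGCGG. The AP-1 motif TGANTCA was searched as well.
Areg: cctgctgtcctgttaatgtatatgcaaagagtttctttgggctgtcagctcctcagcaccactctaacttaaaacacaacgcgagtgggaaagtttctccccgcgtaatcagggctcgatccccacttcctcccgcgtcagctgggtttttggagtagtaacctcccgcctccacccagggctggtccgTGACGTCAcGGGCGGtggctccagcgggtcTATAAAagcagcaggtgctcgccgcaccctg
Btc: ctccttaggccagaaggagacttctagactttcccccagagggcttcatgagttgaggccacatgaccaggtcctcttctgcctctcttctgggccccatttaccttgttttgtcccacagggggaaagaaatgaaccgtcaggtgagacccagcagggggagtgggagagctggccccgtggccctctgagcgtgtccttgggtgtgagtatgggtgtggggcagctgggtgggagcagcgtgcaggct
Egfr: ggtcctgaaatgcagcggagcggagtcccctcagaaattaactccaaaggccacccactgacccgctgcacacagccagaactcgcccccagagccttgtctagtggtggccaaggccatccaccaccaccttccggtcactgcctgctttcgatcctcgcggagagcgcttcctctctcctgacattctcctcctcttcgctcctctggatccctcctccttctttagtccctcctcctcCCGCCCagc
The Areg window held all of the motifs except AP-1, with the response element 61, the GC box 52 and the TATA box 31 bases before the start and no overlap between them. Of 32851 promoters of the same length, 12.4% held TATAAA, 1.55% TGACGTCA, 6.75% TGANTCA and 32.7% GGGCGG. The Btc window held none of the 4 motifs and the Egfr window held a GC box 9 bases before the start. The windows had 15, 4 and 11 CpG sites in Areg, Btc and Egfr, against a median of 6 over the promoters. A match is a description of the letters and no evidence of binding. RefSeq windows matched 5 of the 9 genes, and Ereg, Erbb3, Hbegf and Nrg1 had no entry.

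Expressed per length of transcript, the receptors and ligands fell into a group above 1 TPM and a group with few or no reads. In X2 of batch 1 Ereg, which encodes epiregulin, was highest at 35.9 ± 1.11 TPM (SD, n = 4). It was followed by Hbegf at 34.0 ± 0.208, Erbb2 at 23.3 ± 0.857, Erbb3 at 17.3 ± 0.741, Areg at 8.86 ± 0.881 and Btc at 2.16 ± 0.169 TPM, with no overlap between the libraries of neighbours in this order. X2 of batch 2 gave the same order. In CCR7 cells Hbegf was first at 28.5 ± 1.12 TPM, ahead of Erbb2 at 22.3 ± 0.299 and Ereg at 14.1 ± 1.21 TPM. In CCR7-PDPN cells Erbb2 was first in both batches, at 23.95 ± 1.61 and 25.0 ± 1.73 TPM. In X2-PDPN cells Ereg stood at 46.4 ± 2.48 TPM, while Erbb2 and Hbegf overlapped, at 23.2 ± 1.38 and 21.999 ± 0.777 TPM, as did Erbb3 and Areg, at 18.5 ± 0.970 and 17.8 ± 2.10 TPM. The order depends on the length used. With the longest annotated transcript in place of all exons, Hbegf in X2 of batch 1 was at 41.8 TPM and Ereg at 26.4 TPM.

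**Figure D1:**
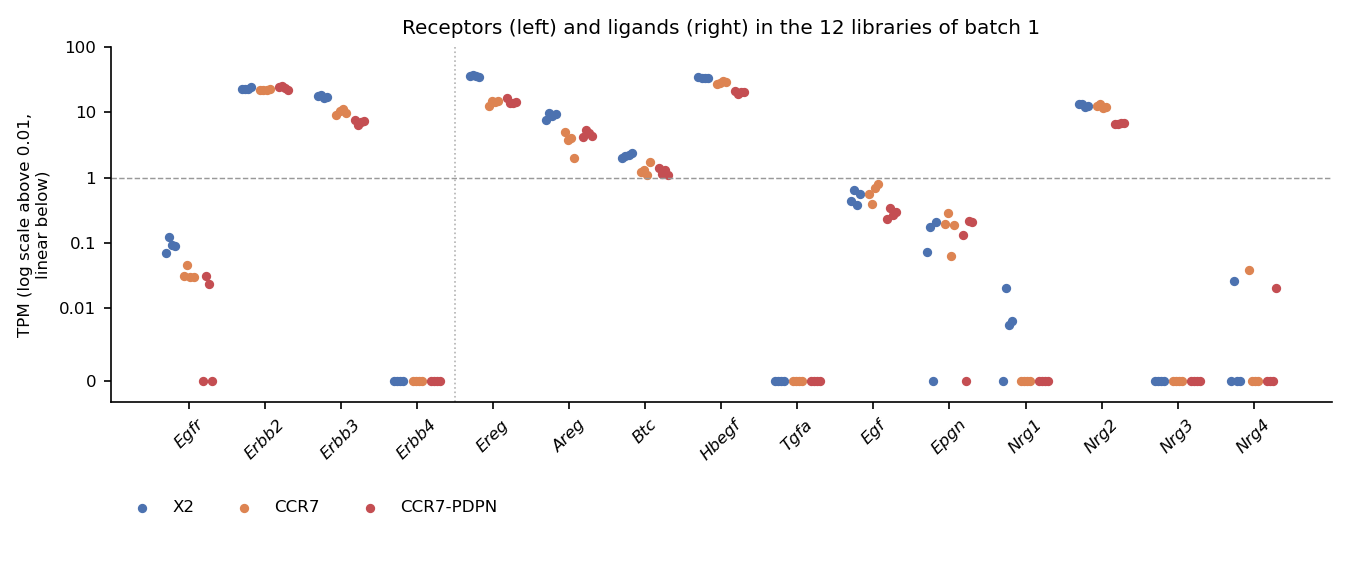
Level in TPM (vertical axis, logarithmic above 0.01 and linear below) of receptors and ligands in each of the 12 libraries of batch 1, coloured by derivative, with a dashed line at 1 TPM. Erbb2, Erbb3, Ereg, Areg, Btc, Hbegf and Nrg2 lie above the line in all 12 libraries, and Tgfa, Erbb4 and Nrg3 lie at 0.

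Egfr, the receptor that Areg, Ereg, Hbegf, Tgfa and Btc bind, had hardly any reads (ENSMUSG00000020122, GRCm38, chromosome 11, 16752203 to 16918158). The 4 X2 libraries held 6, 9, 9 and 8 reads, the CCR7 libraries 3, 4, 3 and 2, and the CCR7-PDPN libraries 0, 3, 2 and 0. Each X2 library had more reads than any other library, while CCR7 and CCR7-PDPN overlapped. Relative to depth the summed reads of CCR7 were 0.362 of those of X2 (95% exact interval 0.170 to 0.721) and those of CCR7-PDPN 0.144 (0.0438 to 0.373). The intervals cover counting error only, and Egfr was removed by the filter on low counts and was not tested in the main fit. Without that filter edgeR gave it a log2 fold change against X2 of -1.42 in CCR7 (SE 0.56, adjusted p = 0.0464). In CCR7-PDPN it was -2.65 (SE 0.66, adjusted p = 0.000296). Both are past the threshold for calls but rest on these few reads. Its mean level in X2 was 0.0942 TPM, against 23.3 TPM for Erbb2.

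Erbb2, the ligand-less partner (ENSMUSG00000062312, chromosome 11, 98412470 to 98437716), stayed within a narrow range. It had 32.3, 31.4, 31.6 and 34.2 CPM in X2, 30.7, 30.9, 30.9 and 31.3 in CCR7 and 34.5, 36.1, 33.6 and 31.2 in CCR7-PDPN of batch 1. In batch 2 it had 34.1, 32.4, 33.5 and 32.4 CPM in X2, 33.8, 31.6, 33.3 and 30.3 in X2-PDPN and 37.7, 37.3, 34.2 and 32.5 in CCR7-PDPN. The CCR7 libraries lay just under those of X2, and the other groups compared overlapped. The log2 fold change against X2 was -0.07 in CCR7 (95% interval -0.16 to 0.03, adjusted p = 0.26 by the quasi-likelihood test of edgeR, adjusted after Benjamini and Hochberg over all tested genes, as throughout). It was -0.04 in X2-PDPN (-0.13 to 0.06, adjusted p = 0.511), and 0.07 (-0.03 to 0.16, adjusted p = 0.232) and 0.10 (0.00 to 0.19, adjusted p = 0.067) in CCR7-PDPN of batches 1 and 2. Between PDPN-positive and PDPN-negative transduced cells the difference was 0.13 (adjusted p = 0.0284), and the 2 PDPN-positive sorts likewise differed by 0.13 (adjusted p = 0.0112). Both differences are under the threshold for calls, an absolute log2 fold change above 1 together with an adjusted p under 0.05, and their adjusted p reached 0.11 and 0.0675 when single libraries were left out. Of 6 genes beside Erbb2, 3 were tested and none was called in the 6 comparisons by edgeR or DESeq2, with an unadjusted p under 0.05 in 1 or 2 of them, where 49.1% to 67.7% of all genes had one.

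Erbb3, the receptor for neuregulins (ENSMUSG00000018166, chromosome 10, 128567523 to 128589652), was lower wherever Ccr7 had been introduced. In batch 1 it had 28.2, 29.0, 26.3 and 27.7 CPM in X2, 14.6, 16.9, 17.9 and 15.5 in CCR7 and 12.5, 10.5, 11.6 and 12.3 in CCR7-PDPN, so that the 3 groups did not overlap. In batch 2 it had 29.7, 28.3, 28.3 and 30.5 CPM in X2, 31.8, 28.5, 29.2 and 29.1 in X2-PDPN and 12.0, 12.9, 13.8 and 12.8 in CCR7-PDPN. X2-PDPN overlapped with X2 and CCR7-PDPN lay below both. In CCR7 against X2 the log2 fold change of Erbb3 was -0.77 (SE 0.06, adjusted p = 1.32e-09), under the fold threshold for calls. CCR7-PDPN stood at -1.24 and -1.18 on the log2 scale relative to X2 of batches 1 and 2 (SE 0.07 and 0.05, adjusted p = 5.05e-13 and 3.49e-23). Against CCR7 cells, which share the transduction, CCR7-PDPN cells had a log2 fold change of -0.47 (SE 0.07, adjusted p = 1.42e-05), whereas X2-PDPN differed from X2 by 0.02 (95% interval -0.08 to 0.12, adjusted p = 0.748). Its ligand Nrg1 (ENSMUSG00000062991, chromosome 8, 31814551 to 32884797) had 0, 2, 1 and 1 reads in the X2 libraries and no read in the other 8 libraries of batch 1, while the related Nrg2 had 100 to 346 reads in each of the 24 libraries. Cd68, described above, had lower TPM than in X2 where Erbb3 was lower, and also in X2-PDPN, where Erbb3 overlapped with X2. Its part in the result was not tested. In bulk RNA a lower level can come from fewer cells that express a gene or from less RNA per cell, and these cannot be told apart here.

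**Figure D2:**
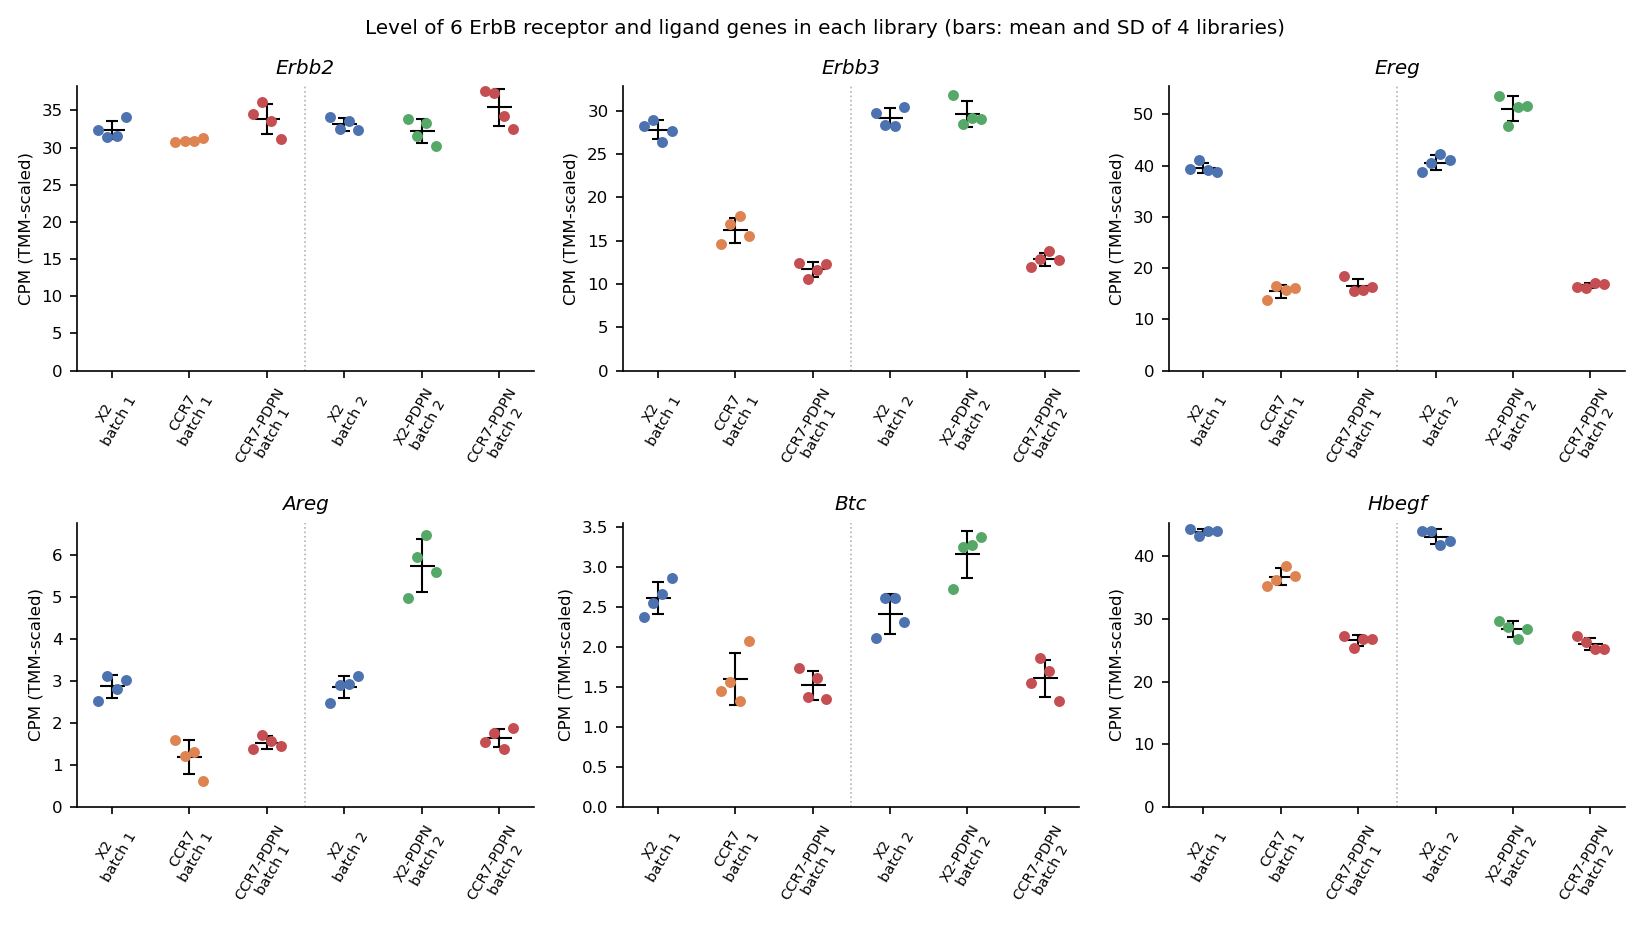
CPM after TMM scaling (vertical axes, from 0) of 6 receptor and ligand genes in each library, with the mean and SD of the 4 libraries of each group; the dotted line separates batch 1 from batch 2. Erbb2 is level across the groups, Erbb3 and Ereg are low in the transduced cells, and Areg, Ereg and Btc are highest in X2-PDPN.

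Ereg (ENSMUSG00000029377, chromosome 5, 91074622 to 91093646) encodes epiregulin, which binds EGFR and ERBB4. It had 39.3, 41.0, 39.1 and 38.7 CPM in X2, 13.7, 16.6, 15.8 and 16.0 in CCR7 and 18.4, 15.5, 15.7 and 16.4 in CCR7-PDPN of batch 1. In batch 2 it had 38.7, 40.5, 42.2 and 41.1 CPM in X2, 53.5, 47.7, 51.5 and 51.6 in X2-PDPN and 16.3, 16.2, 17.1 and 17.0 in CCR7-PDPN. All transduced libraries lay below all others, and X2-PDPN lay above X2. Ereg fell by 1.35 on the log2 scale in CCR7 against X2 (SE 0.06, adjusted p = 4.65e-14), a 2.55-fold difference. In CCR7-PDPN against X2 its log2 fold change was -1.26 (SE 0.06, adjusted p = 6.8e-14) in batch 1 and -1.29 (SE 0.05, adjusted p = 1.17e-26) in batch 2, and against X2-PDPN it was -1.61 (SE 0.05, adjusted p = 6.43e-31). Between CCR7-PDPN and CCR7 the difference was 0.09 (95% interval -0.04 to 0.23, adjusted p = 0.273). In X2-PDPN Ereg rose by 0.33 over X2 (SE 0.04, adjusted p = 2.81e-09), a 1.26-fold difference under the threshold for calls. Cd68 had lower TPM than in X2 in CCR7 and CCR7-PDPN along with Ereg, and also in X2-PDPN, where Ereg was higher. Its part in the result was not tested.

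Areg (ENSMUSG00000029378, chromosome 5, 91139599 to 91148432) encodes amphiregulin, an EGFR ligand. It was covered by few reads, 14 to 214 per library. In batch 1 it had 2.52, 3.13, 2.82 and 3.03 CPM in X2, 1.61, 1.22, 1.32 and 0.631 in CCR7 and 1.39, 1.73, 1.58 and 1.46 in CCR7-PDPN. In batch 2 it had 2.48, 2.90, 2.94 and 3.11 CPM in X2, 4.97, 5.96, 6.49 and 5.60 in X2-PDPN and 1.56, 1.77, 1.39 and 1.88 in CCR7-PDPN. X2-PDPN lay above every other group and the transduced groups lay below X2. The lowest value, in replicate 4 of CCR7, came from 14 reads. Areg rose by 1.01 on the log2 scale in X2-PDPN against X2 (SE 0.11, adjusted p = 1.9e-10), a 2.01-fold difference that only just passed the threshold for calls. It passed neither without the filter on low counts, where the log2 fold change was 0.9984, nor in 3 of the fits that left out a library, which gave 0.95 to 1.07. Those libraries were replicate 1 of X2 and replicates 2 and 3 of X2-PDPN. Areg fell by 1.21 in CCR7 against X2 (SE 0.18, adjusted p = 7.1e-06), by 0.90 in CCR7-PDPN against X2 of batch 1 (SE 0.17, adjusted p = 0.000108) and by 0.80 in batch 2 (SE 0.14, adjusted p = 4.99e-06). Among receptors and ligands kept by the filter on low counts, the largest difference was that of Areg between CCR7-PDPN and X2-PDPN. Its log2 fold change was -1.80 (SE 0.13, adjusted p = 1.11e-16), a 3.49-fold difference. Between CCR7-PDPN and CCR7 it was 0.32 (95% interval -0.09 to 0.72, adjusted p = 0.205).

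Btc (ENSMUSG00000082361, chromosome 5, 91357261 to 91402994), the gene of betacellulin, a ligand of EGFR and ERBB4, was the lowest of the 6 in mean TPM and had 35 to 117 reads per library. It had 2.38, 2.55, 2.66 and 2.86 CPM in X2, 1.46, 1.57, 1.32 and 2.07 in CCR7 and 1.73, 1.38, 1.62 and 1.36 in CCR7-PDPN of batch 1. The values of batch 2 were 2.11, 2.62, 2.61 and 2.32 CPM in X2, 2.73, 3.26, 3.28 and 3.38 in X2-PDPN and 1.56, 1.87, 1.71 and 1.33 in CCR7-PDPN. Both transduced groups lay below X2 and X2-PDPN above it, without overlap, while CCR7 and CCR7-PDPN overlapped with each other. Btc fell by 0.73 in CCR7 against X2 (SE 0.15, adjusted p = 0.000341) and rose by 0.38 in X2-PDPN against X2 (SE 0.13, adjusted p = 0.0104). Against X2-PDPN, CCR7-PDPN had a log2 fold change of -0.96 (SE 0.14, adjusted p = 1.25e-07), just short of the fold threshold for calls.

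Hbegf (ENSMUSG00000024486, chromosome 18, 36504927 to 36515805) encodes heparin-binding EGF-like growth factor, which binds EGFR and ERBB4. It had 44.4, 43.1, 44.0 and 44.0 CPM in X2, 35.2, 36.2, 38.5 and 36.9 in CCR7 and 27.3, 25.3, 26.9 and 26.8 in CCR7-PDPN of batch 1. The batch 2 values were 44.0, 44.1, 41.7 and 42.5 CPM in X2, 29.7, 28.7, 26.7 and 28.5 in X2-PDPN and 27.3, 26.3, 25.2 and 25.2 in CCR7-PDPN. Both PDPN-positive sorts lay below the PDPN-negative cells of their batch, and they overlapped with each other in batch 2. Hbegf fell by 0.60 in X2-PDPN against X2 (SE 0.04, adjusted p = 3.3e-16), by 0.46 in CCR7-PDPN against CCR7 (SE 0.04, adjusted p = 1.99e-08) and by 0.26 in CCR7 against X2 (SE 0.04, adjusted p = 1.58e-05). Its log2 fold change was -0.72 and -0.73 in CCR7-PDPN against X2 of batches 1 and 2, a 1.65-fold and a 1.66-fold difference, and none of these reached the fold threshold for calls. Of the 4 tested ligands among the 9 genes, Ereg, Areg, Btc and Hbegf, Hbegf was the one that fell in X2-PDPN, and Nrg2, a ligand gene outside the 9, also fell there, as described below. Tgfa (ENSMUSG00000029999, chromosome 6, 86195223 to 86275719), another EGFR ligand, was without a read in each of the 12 batch 1 libraries, and 0 reads still permit a level of up to 0.135 CPM.

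**Figure D3:**
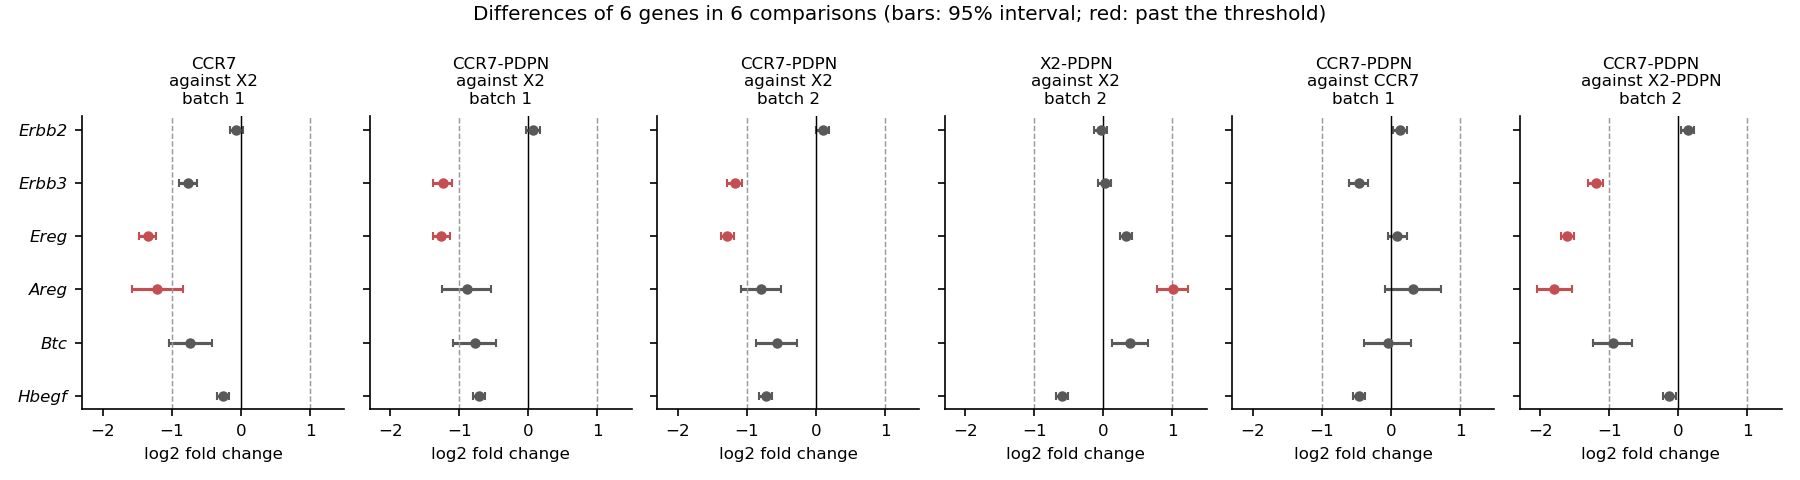
Log2 fold change (horizontal axis, with its 95% interval) of 6 receptor and ligand genes in 6 comparisons within a batch, with dashed lines at -1 and 1 and red points past the threshold for calls. Ereg and Erbb3 are left of the lower line in CCR7-PDPN against X2 in both batches, and Areg alone reaches the upper line, in X2-PDPN against X2.

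Counted over the comparisons, 6 of the 9 genes were kept by the filter on low counts and tested. In CCR7 against X2, Ereg and Areg were called lower, 2 of 6, where 3.18% of the 13261 genes tested were called lower. All 6 had every CCR7 library below every X2 library, against 22.8% of genes, and 5 had an adjusted p under 0.05 and were lower, against 25.2%. In CCR7-PDPN against X2, Ereg and Erbb3 were called lower in both batches, against 5.36% of genes in batch 1 and 5.67% in batch 2. In X2-PDPN against X2, Areg was called higher, 1 of 6 against 3.51% of the 13314 genes tested. With the fold threshold left aside, 3 rose and 1 fell, where the shares of all genes were 28.2% and 28.5%. In CCR7-PDPN against X2-PDPN, Ereg, Areg and Erbb3 were called lower, against 6.4% of genes. In CCR7-PDPN against CCR7, 0 of 6 were called by edgeR or by DESeq2, against 3.27% of genes, and 3 had an unadjusted p under 0.05, where 49.1% of all genes did. The median log2 fold change of the 6 was -0.75 in CCR7 against X2, -0.84 and -0.76 in CCR7-PDPN against X2 of batches 1 and 2, 0.17 in X2-PDPN against X2, 0.02 in CCR7-PDPN against CCR7 and -1.08 in CCR7-PDPN against X2-PDPN, while the median over the genes tested was 0.00 in each. The comparisons of a batch share libraries, so these counts do not stand alone.

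Whether the difference that goes with PDPN depended on Ccr7 was asked by subtracting the change from X2 to X2-PDPN from the change from CCR7 to CCR7-PDPN. The contrast mixes batches, with the Ccr7-transduced pair from batch 1 and the X2 pair from batch 2. The difference passed an adjusted p under 0.05 in 4 of the 6 genes, where 40.8% of 13690 genes passed. It was -0.49 for Erbb3 (SE 0.08, adjusted p = 8.82e-06), -0.69 for Areg (SE 0.22, adjusted p = 0.0111), -0.23 for Ereg (SE 0.08, adjusted p = 0.0124) and 0.17 for Erbb2 (SE 0.07, adjusted p = 0.0389). For Btc it was -0.43 (95% interval -0.84 to -0.02, adjusted p = 0.0885) and for Hbegf 0.14 (0.02 to 0.26, adjusted p = 0.0504). The Erbb2 value lost its call in DESeq2, with an adjusted p of 0.0568, and in 10 of 16 fits that left out a library. The Areg value lost it in 1 of these 16 fits, where the values ran from -0.86 to -0.53 and the adjusted p reached 0.0625. Without replicate 1 of CCR7 the count was 2 of 6.

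The comparison of CCR7-PDPN with X2 was made in both batches. For the 6 genes the batch 1 value minus the batch 2 value ranged from -0.21 for Btc (95% interval -0.62 to 0.21) to 0.03 for Ereg (-0.13 to 0.18). None of the 6 genes, and 0 of the 13690 genes tested, had an adjusted p under 0.05 in edgeR or DESeq2. An unadjusted p under 0.05 was found in 293 genes (2.14%), none of them a receptor or ligand named here. No X2 or CCR7-PDPN library of batch 1 was a copy of one of batch 2. Between X2 libraries of the 2 batches the chi-square per degree of freedom was 2.88 to 5.74 and between CCR7-PDPN libraries 3.24 to 10.1. Each batch 1 library of these derivatives had its lowest value with the batch 2 library of the same replicate number. These same-numbered pairs had 2.88 to 4.11 in X2 and 3.24 to 5.32 in CCR7-PDPN. Whether batch 2 sequenced the same samples again is not given in the sources used here. The agreement may therefore not be between separately grown cells, and the test did not pair the same-numbered libraries.

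Ereg, Areg and Btc lie together on chromosome 5. The start of Ereg is 65.0 kb from that of Areg and the start of Areg 263 kb from that of Btc. Epgn, the gene of epigen, another EGFR ligand, lies 47.2 kb on the far side of Ereg and had 0 to 4 reads in each batch 1 library. Within 2 Mb of Areg 25 genes were tested in batch 1, with a median log2 fold change of -0.01 in CCR7 against X2, against -1.21 for Areg. Ereg and Shroom3 (-2.80) were lower than Areg there, and 5 of the 29 genes within 2 Mb of Btc were lower than Btc. In X2-PDPN against X2 the 23 genes tested had a median of -0.05, against 1.01 for Areg. Cxcl10 (1.39) and Afp (1.16) were higher than Areg in this comparison, and 4 of 22 genes around Ereg and 3 of 27 around Btc were higher than these. Shroom3, Cxcl10 and Afp are named because they lay beyond Areg, after their values were seen. Of the annotated genes from Epgn to Btc, Gm19610 was the other one tested. It runs on the opposite strand and overlaps the start of Ereg by 152 bases. Relative to X2 it was at -0.84 on the log2 scale in CCR7 (adjusted p = 1.15e-05) and at -0.01 in X2-PDPN (adjusted p = 0.928). The strand setting of the counting is not given in the sources used here, so reads in the overlap cannot be assigned to one strand with certainty. Of the other genes beside the cluster, 3 of 7 listed were tested and none was called in any comparison by edgeR or DESeq2. In X2-PDPN against X2 all 3 had an unadjusted p under 0.05, as 60.6% of all genes did, and their median log2 fold change was -0.24.

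Hbegf has Nrg2, a neuregulin gene, 318 kb from its start. Nrg2 had 11.4, 11.2, 10.2 and 10.6 CPM in X2, 10.5, 11.0, 9.71 and 10.0 in CCR7 and 5.68, 5.70, 5.74 and 5.89 in CCR7-PDPN of batch 1. The batch 2 values were 10.8, 10.6, 8.82 and 11.5 CPM in X2, 3.29, 3.03, 3.54 and 3.86 in X2-PDPN and 6.09, 6.56, 5.12 and 4.90 in CCR7-PDPN. Both PDPN-positive sorts were below all PDPN-negative libraries. Nrg2 fell by 1.61 on the log2 scale in X2-PDPN against X2 (SE 0.10, adjusted p = 9.67e-18) and by 0.84 in CCR7-PDPN against CCR7 (SE 0.07, adjusted p = 7.37e-09). By their median, the genes within 2 Mb of Hbegf were also lower in both comparisons, though not in CCR7 against X2 (0.12). At the threshold for calls, 6 were higher and 2 lower in X2-PDPN against X2, where 3.51% and 1.55% of all genes were. In CCR7-PDPN against CCR7, 1 was called higher and 3 lower, against 3.27% of all genes called in either direction. The median around Hbegf was -0.19 over 77 genes in CCR7-PDPN against CCR7 and -0.14 over 76 genes in X2-PDPN against X2, and 44.2% and 44.7% of them were lower at an adjusted p under 0.05, against 20.7% and 28.5% of genes tested. With the median of its surroundings subtracted, Hbegf was at -0.28 and -0.46. The part of the surroundings in the result was not tested.

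**Figure D4:**
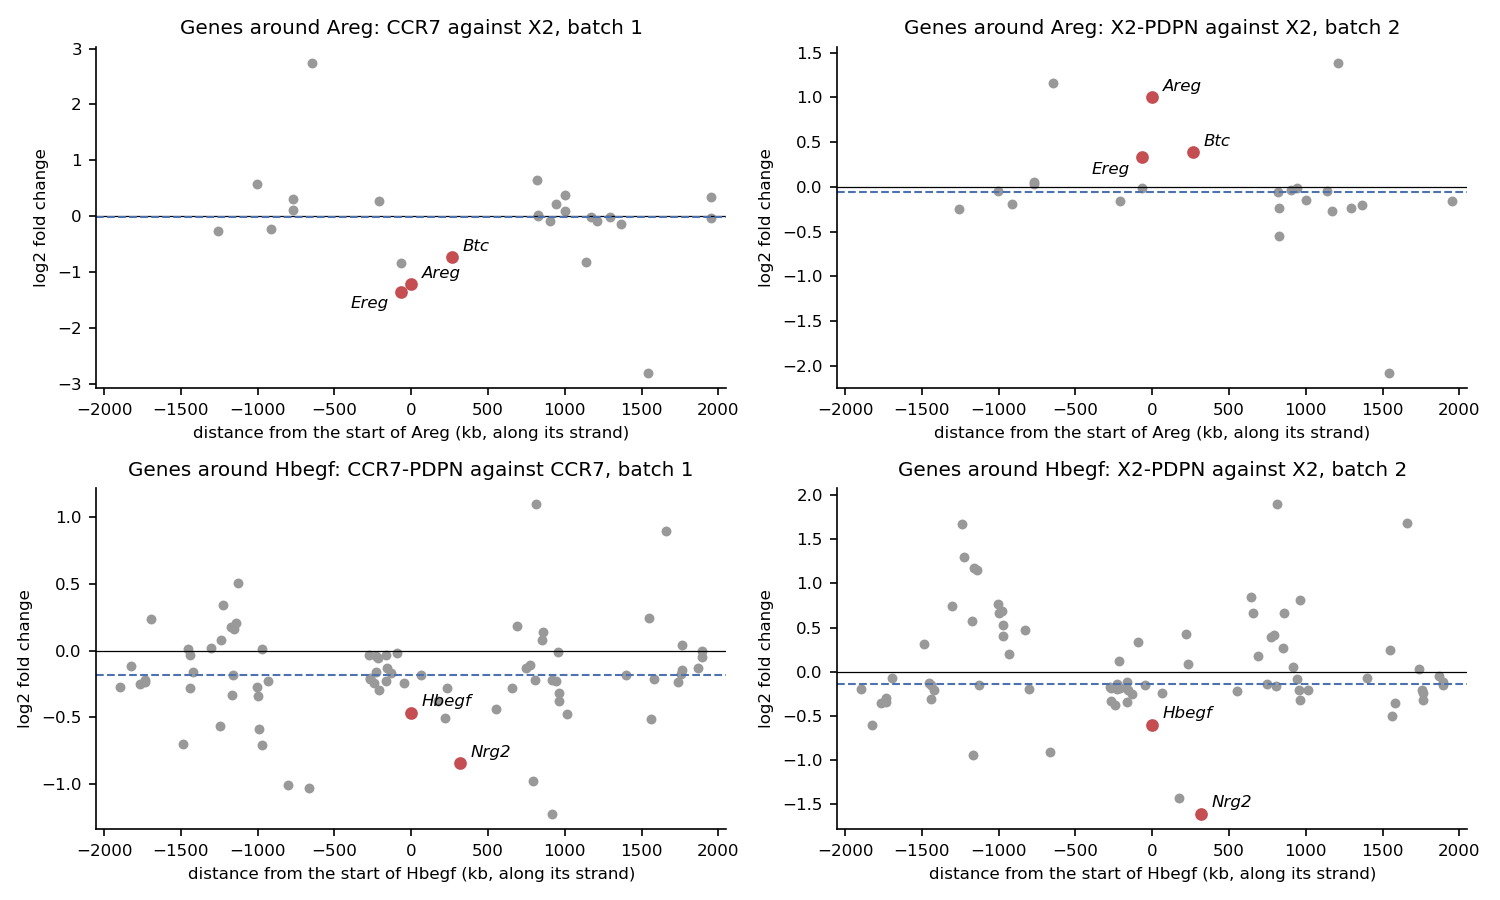
Log2 fold change (vertical axis) of the tested genes against the distance in kb of their start from the start of Areg (upper panels) or Hbegf (lower panels), with the named ligands in red and the median of the other genes as a dashed blue line. Areg, Ereg and Btc lie below the median of their surroundings in CCR7 and above it in X2-PDPN, with single other genes farther out, such as Shroom3 at -2.80 and Cxcl10 at 1.39, and Hbegf and Nrg2 lie below a median that is itself below 0.

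The remaining family members were Erbb4 and Nrg3 with 0 reads in batch 1, Nrg4 with 0 to 2 reads per library and Egf with 19 to 69. Egf, the gene of epidermal growth factor, fell by 1.06 on the log2 scale in CCR7-PDPN against CCR7 (adjusted p = 0.000695), at a level under 1 TPM in the mean of each group.

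Genes that cut, restrain or carry ErbB signals were described by lists. Of 11 genes of ligand shedding, such as the metalloproteases Adam10 and Adam17, 9 were tested and 0 were called in any of the 6 comparisons by edgeR or DESeq2, with an unadjusted p under 0.05 in 4 to 8 of them. Of all genes, 49.1% to 67.7% had an unadjusted p under 0.05 in these comparisons. Calls covered 6.48% of all genes in CCR7 against X2, 9.45% and 9.63% in CCR7-PDPN against X2 of batches 1 and 2, 3.27% in CCR7-PDPN against CCR7, 5.05% in X2-PDPN against X2 and 9.16% in CCR7-PDPN against X2-PDPN. Of 32 adaptors and kinases of the RAS-ERK and PI3K-AKT cascades, 31 were tested and again 0 were called by edgeR or DESeq2, with an unadjusted p under 0.05 in 15 to 25. With the fold threshold left aside, 10 of the 31 rose and 5 fell in CCR7 against X2 (24% and 25.2% of all genes), with a median log2 fold change of 0.03. In X2-PDPN against X2, 10 rose and 8 fell (28.2% and 28.5% of all genes), with a median of -0.01. In CCR7-PDPN against X2, 18 rose and 5 fell in batch 1 (30.3% and 30.6% of all genes), and 20 rose and 4 fell in batch 2 (32% and 32.8%), with medians of 0.14 and 0.13.

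Of 14 genes of receptor inhibition and turnover, Socs4 and Sh3kbp1 were called lower in CCR7 against X2, in CCR7-PDPN against X2 of both batches and in CCR7-PDPN against X2-PDPN. Socs4, a suppressor of cytokine signalling that targets EGFR, fell by 1.06 in CCR7 (SE 0.04, adjusted p = 1.21e-14) and was at -0.10 in X2-PDPN (adjusted p = 0.0189), both relative to X2. Sh3kbp1, an adaptor that binds CBL during receptor internalisation, fell by 1.24 in CCR7 against X2 (SE 0.15, adjusted p = 8.37e-07) and rose by 0.75 in X2-PDPN against X2 (SE 0.11, adjusted p = 1.11e-07). Against X2-PDPN, CCR7-PDPN had a value of -2.38 (SE 0.14, adjusted p = 2.2e-19). Sh3kbp1 had 19 to 50 reads per library in the transduced cells of batch 1. The genes lying around Socs4 and Sh3kbp1 were not examined, so the part of their surroundings in these differences was not tested.

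Of 24 genes of ERK output and feedback, 23 were tested. Lif, a cytokine gene, was called lower in CCR7 and in CCR7-PDPN against X2, with log2 fold changes of -1.03, -1.35 in batch 1 and -1.71 in batch 2. Etv1, a transcription factor gene, was called higher in CCR7-PDPN against X2, by 1.43 in batch 1 (SE 0.05, adjusted p = 4.13e-16) and 1.49 in batch 2 (SE 0.06, adjusted p = 1.7e-26). Egr1, an immediate early gene, rose by 1.69 in X2-PDPN against X2 (SE 0.13, adjusted p = 4.67e-15), as Areg did. In CCR7 cells mean Egr1 was 0.987 CPM, lower than in X2 of batch 1, as was Areg. In CCR7-PDPN of batches 1 and 2 mean Egr1 was 1.83 and 2.05 CPM, against 1.60 and 1.74 in X2, whereas Areg was lower than in X2. Fos, another immediate early gene, had a log2 fold change of -1.92 in CCR7-PDPN against X2-PDPN (SE 0.25, adjusted p = 4.9e-09), from 7 to 15 and 41 to 47 reads per library, a level under the limit set for naming genes, and was named after its values were seen. With the fold threshold left aside, 4 of the 23 rose and 9 fell in CCR7 against X2 (24% and 25.2% of all genes), with a median log2 fold change of 0.00. In X2-PDPN against X2, 12 rose and 5 fell (28.2% and 28.5% of all genes), with a median of 0.18. Counted over the 79 tested genes of these 4 lists and of the 2 further family members, the calls were 0 higher and 3 lower in CCR7 against X2, where 3.3% and 3.18% of all genes were called. They were 1 higher and 1 lower in X2-PDPN against X2, where 3.51% and 1.55% were called. At an adjusted p under 0.05 alone, 49.4% of the 79 passed in CCR7 against X2 (49.3% of all genes), 69.6% and 77.2% in CCR7-PDPN against X2 of batches 1 and 2 (60.9% and 64.8%), 55.7% in CCR7-PDPN against CCR7 (41.6%), 74.7% in X2-PDPN against X2 (56.8%) and 78.5% in CCR7-PDPN against X2-PDPN (63.2%).

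**Figure D5:**
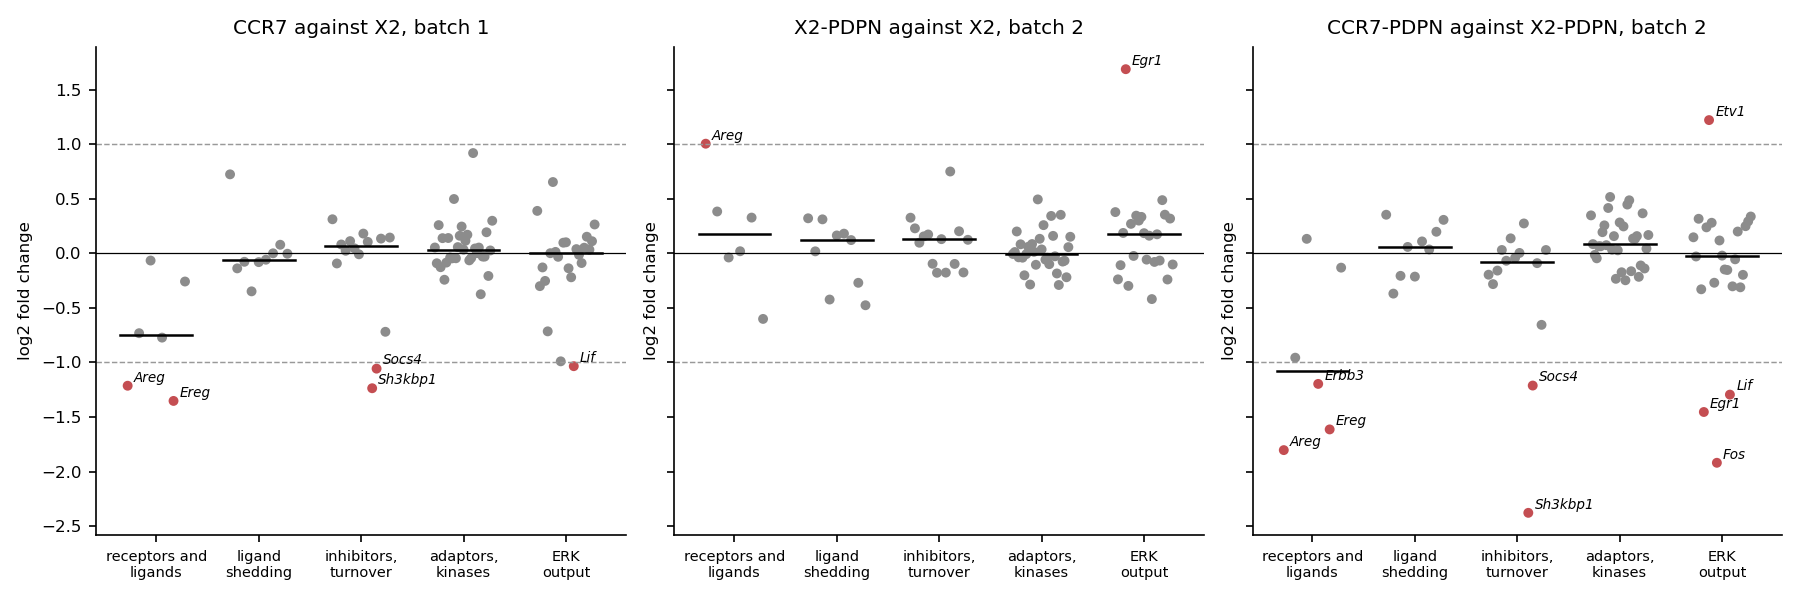
Log2 fold change (vertical axis) of each tested gene of the receptors and ligands and of 4 pathway lists in 3 comparisons, with the list median as a black bar, dashed lines at -1 and 1 and called genes in red. The adaptor and kinase list stays within the dashed lines in the 3 comparisons, and the receptor and ligand list has its median at -0.75, 0.17 and -1.08.

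The genes whose profile over the 24 libraries was most like that of a called receptor or ligand were found by Pearson's r of log2 CPM centred on X2 of the same batch, among 10531 genes. They were Rasa3 (0.9945), Fhdc1 (0.9926) and Vcl (0.9916) for Ereg, Mbd4 (0.9653), Ecm1 (0.9606) and Camkk1 (0.9605) for Areg, and Celf4 (0.9889), Creb5 (0.9879) and Bmpr1a (0.9872) for Erbb3. Ereg had an r of 0.94 with Erbb3 (rank 225 of the 10531 genes), 0.9223 with Btc (rank 348) and 0.8808 with Areg (rank 625). With Hbegf it was 0.4585 (rank 3028) and with Erbb2 -0.2884 (rank 6511). Many other genes thus followed Ereg more closely than these receptors and ligands did. The libraries fall into 4 derivatives, so the 24 points are not independent, and the values describe these libraries.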

How the data were processed

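RNA of 24 EO771 libraries was sequenced by the authors with TruSeq Stranded mRNA kits as single-end reads and mapped to GRCm38 (mm10, per the submitters' processing notes). The aligner and the strand setting are not given in the sources used here. The authors deposited raw counts for each Ensembl gene, with replicates kept apart and values unscaled, in 1 table per batch. Library totals were 22275468 to 33395418 in batch 1 and 22788542 to 35721027 in batch 2. A count of 0 allows 3 counts, at most 0.135 CPM.

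Differential expression was tested per batch in edgeR 4.0.16 (R 4.3.3) by robust quasi-likelihood fits with TMM factors (0.986 to 1.017) to the 3 groups, after filterByExpr. The p-values were corrected by the Benjamini-Hochberg method over 13261 or 13314 genes. A gene was called at an adjusted p under 0.05 together with an absolute log2 fold change above 1. The interaction and the repeat across batches used 6 groups and 13690 genes. TPM used summed exon lengths, and log2 CPM for profiles a prior count of 2. Receptors and ligands were named in every comparison. From the other lists, called genes were named where log2 CPM averaged 1 or more, at most 4 a list. The receptors, ligands and lists were chosen with earlier results of these data known. The fits were tested on simulated data. As alternatives, DESeq2 1.42.0, RLE factors, different low-count filters and sets of libraries, replicate number as a block, calls by adjusted p alone, TPM by longest transcript and the omission of single libraries were tried. Subtraction of the median within 2 Mb was chosen after seeing the data. Replicates of a group differed by more than sampling noise in 36 of 36 pairs (chi-square 2.07 to 22.5 relative to the degrees of freedom). The highest values, 22.5, 17.6 and 13.5, were those of replicate 1 of CCR7 with the other CCR7 libraries. Outside the CCR7 group the highest was 7.15. Python 3.11.15, pandas 2.3.3, scipy 1.17.1 and matplotlib 3.10.9 served for the other steps.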

Additional observations from a re-analysis of the deposited data

Results flagged for a closer look

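Egfr in CCR7 of batch 1 had 1 library apart from the others. Replicate 2 had 0.1393 CPM, from 4 reads, against 0.0901 to 0.0929 CPM in the other 3, which held 2 or 3 reads, so the gap is within counting error. Its share of the range was 0.942, over Dixon's 95% limit for 4 samples. Of 40 gene and group combinations examined this was the one beyond the limit, where chance gives about 1 in 20.

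The difference that goes with PDPN was itself different between cells with and without Ccr7, by the interaction test over 24 libraries, for Ereg (-0.23 on the log2 scale), Areg (-0.69), Erbb3 (-0.49) and Erbb2 (0.17). For Areg and Ereg this is a rise in X2-PDPN against X2 and values of 0.32 and 0.09, neither past the test, in CCR7-PDPN against CCR7. For Erbb3 it is a fall in CCR7-PDPN and 0.02 in X2-PDPN. The interaction values of Areg and Erbb2 lost their call in 1 and 10 of 16 fits that left out a library. CCR7 cells were sequenced in batch 1 and X2-PDPN cells in batch 2, so the batch and the cells cannot be told apart here.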

How the results depend on the processing

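Without the fold change threshold, receptors and ligands called numbered 5 in CCR7 against X2, 5 in CCR7-PDPN against X2 of batch 1, 3 in CCR7-PDPN against CCR7, 4 in X2-PDPN against X2, 5 in CCR7-PDPN against X2 of batch 2 and 6 in CCR7-PDPN against X2-PDPN, and pathway genes 39, 55, 44, 59, 61 and 62 of 79, where 49.3%, 60.9%, 41.6%, 56.8%, 64.8% and 63.2% of all genes passed. Without the filter on low counts 0 were called in X2-PDPN against X2, where Areg was at 0.9984. That fit also called Egfr lower in CCR7 and in CCR7-PDPN against X2 of batch 1. DESeq2, RLE factors, the other filter and other libraries in the fit kept the remaining counts within 1.5 times. With single libraries left out, receptors and ligands called ranged from 0 to 1 in X2-PDPN against X2 and from 2 to 5 in the interaction (2 without replicate 1 of CCR7), and pathway genes called from 0 to 1 in CCR7-PDPN against CCR7. Log2 fold changes that changed sign then were Btc in CCR7-PDPN against CCR7 (-0.1324 to 0.0758), Erbb3 in X2-PDPN against X2 (-0.0164 to 0.0395) and, for the repeat across batches, Ereg (-0.0325 to 0.0585), Hbegf (-0.0035 to 0.0349) and Erbb2 (-0.0671 to 0.0097), none past the test. Of 312 receptor and ligand values under the other settings 307 kept direction and call. The causes were not tested. Low read numbers limit Areg and Btc, and Egfr was tested only without the filter on low counts.

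Within a batch the replicate numbers did not pair libraries of different derivatives: same-numbered deviations correlated at -0.1203 to 0.1056 over 24 pairs, 1 of them over 0.1. Between batches, libraries of X2 and of CCR7-PDPN were closest to the one of the same number, as described above. The main fit over 24 libraries did not pair them. A replicate block moved the calls over all genes from 859 to 854 in CCR7 against X2 and from 673 to 671 in X2-PDPN against X2, and changed 1 call of a receptor or ligand, Erbb2 in CCR7-PDPN against X2 of batch 2, to an adjusted p just past the threshold (0.0955 on the log2 scale).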
